A study of Caenorhabditis elegans with 24 samples.

Results

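The interaction of the htz-1 and daf-2 mutations in young adult Caenorhabditis elegans was measured as a difference of differences for each gene. The value of daf-2 was subtracted from that of daf-2;htz-1, and the difference between htz-1 and wt was subtracted from the result. The comparison used 16 of the 24 RNA-sequencing libraries of the series, and it covered the 14482 of 21689 genes whose mean value over the 24 libraries was at least 3. Values are regularized log2 (rlog) values, so a difference of 1 stands for a doubling on that scale. Differences of genes with few reads are shrunk in such values, so 1 unit can stand for a larger change there. An interaction of 0 means that the effects of the mutations add up on the rlog scale. An interaction above 0 means that the double mutant lay above the sum of the single-mutant effects, and an interaction below 0 that it lay below it.

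Whole worms were collected on the first day of adulthood after growth at 20 °C on OP-50-1 bacteria. The double mutant daf-2;htz-1 carried daf-2(e1370) and htz-1(bon101), the daf-2 group carried e1370 alone, the htz-1 group carried bon101 alone, and wt was the strain N2. Each group had 4 libraries, 1 from each of 4 labelled batches. In the other 8 libraries the allele daf-16(mu86) was added to e1370, with bon101 in 4 of them (daf-16;daf-2;htz-1) and without it in 4 (daf-16;daf-2); they entered the fit to estimate the spread and are compared at the end. The change that bon101 makes in the gene and the genotype of the mothers are not stated in the labels. Nor is the origin of the libraries of a group (separate cultures or not). The p-values set a difference against a spread that the genotypes share, estimated within genotypes over all 24 libraries. Whether that spread includes differences between cultures is therefore unknown. The tissue is the whole animal, with its germline and any embryos it holds, so fewer cells of a type and less RNA per cell cannot be told apart.

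The gene daf-2 encodes the worm's insulin/IGF-1 receptor. When the receptor is active, a kinase cascade keeps the FOXO transcription factor DAF-16 out of the nucleus, and when its function is reduced DAF-16 enters the nucleus and turns on genes of stress resistance, metabolism and long life. The gene htz-1 encodes H2A.Z, a variant of histone H2A that is placed by the SWR1 complex into nucleosomes near the starts of genes, where it bears on how easily a gene is switched on or kept silent.

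The htz-1 transcript was not lower in worms with htz-1(bon101). It was 11.35, 11.34, 11.35 and 11.28 in the double mutant, 11.18, 10.84, 10.67 and 11.30 in daf-2, 11.21, 11.37, 11.39 and 11.53 in htz-1, and 11.14, 10.64, 10.62 and 11.23 in wt. The htz-1 effect on it was 0.33 in daf-2, adjusted p = 0.0946, and 0.47 in wt, adjusted p = 0.0155, so the transcript level does not check the label, and an htz-1 effect means here a difference between worms with and without this allele. Neither mutated gene had a call for an interaction: htz-1 had -0.13 ± 0.22 (SE), adjusted p = 0.749, and the daf-2 transcript one of 0.29 ± 0.44, adjusted p = 0.724. Among the groups of the contrast, libraries of daf-2;htz-1 and htz-1 were the more alike. The root mean square deviation from the group mean was 0.242 to 0.332 in daf-2;htz-1, 0.373 to 0.570 in daf-2, 0.290 to 0.357 in htz-1 and 0.400 to 0.514 in wt. The first libraries of daf-2 and wt had the lowest median values of their groups, 7.42 in daf-2 and 7.46 in wt. Outside these groups, replicate 3 of daf-16;daf-2;htz-1 carried DAF-16-induced genes at a mean of 10.16, against 8.07 to 8.38 in the other libraries of that genotype. For these genes it goes against its label. The mean of hatching and embryonic cuticle genes does not: it was 8.05 to 9.23 in the 4 libraries of that genotype and 4.86 to 5.70 in daf-2;htz-1. What sets replicate 3 apart was not tested. That replicate enters the interaction only through the shared estimate of the spread, and without it 1293 genes were called above 0 and 902 below 0.

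In the fit of all genes, 1126 genes had an interaction above 0 (7.78% of the genes tested) and 806 an interaction below 0 (5.57%), at an adjusted p under 0.05 (limma, Benjamini-Hochberg). A size of at least 1 on the log2 scale was reached by 1010 and 655 of them. The effect of htz-1(bon101) was on the whole smaller in daf-2 than in wild type. It was called for 5868 genes in daf-2 (40.5%, with 20.4% higher and 20.1% lower) and for 7382 in wt (51%, with 26.4% higher and 24.5% lower). Its SD over all genes was 1.12 in daf-2 and 1.51 in wt, and its median size was 0.505 in daf-2 and 0.616 in wt. The effects in both backgrounds had the same sign for 78.1% of the genes, with a correlation across genes of r = 0.781 and rho = 0.747, where genes are not independent replicates.

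**Figure D1:**
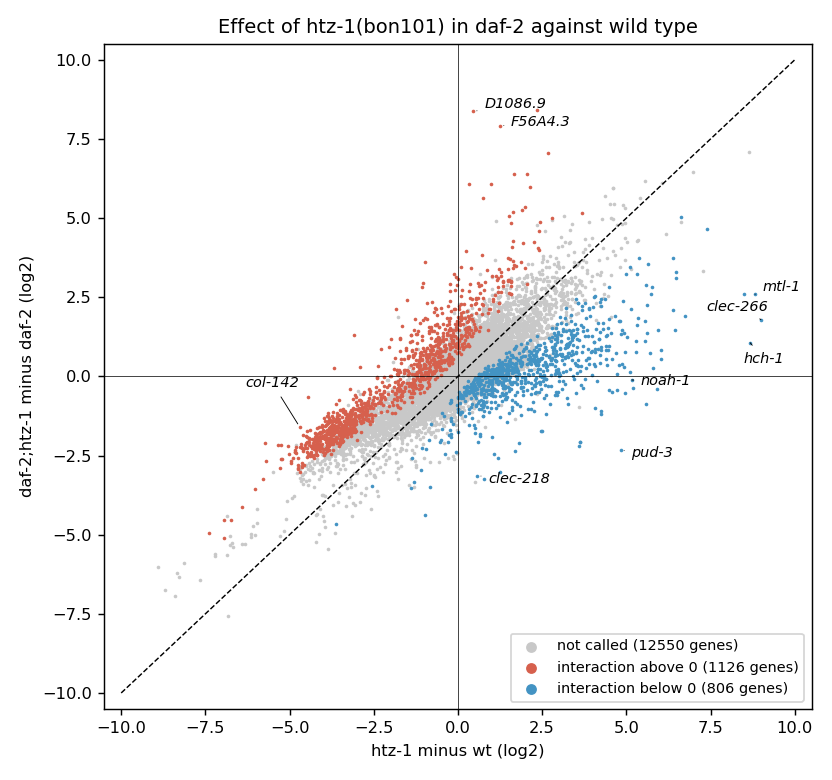
Each point is 1 of 14482 genes, with the effect of htz-1(bon101) in wild type (htz-1 minus wt, log2) on the x axis and in daf-2 (daf-2;htz-1 minus daf-2, log2) on the y axis. The dashed line marks equal effects. The 1126 red genes lie above the line, many of them where the effect is below 0 and nearer to 0 in daf-2, and the 806 blue genes lie below it, many near 0 on the y axis and far above 0 on the x axis.

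The genes called for the interaction fell into a few patterns. Of the 1932 genes, 686 (35.5%) had an htz-1 effect called in both backgrounds with the same sign and a smaller size in daf-2, and 751 (38.9%) had one called in wt only. Another 294 (15.2%) had an effect called in daf-2 only, 88 had the larger effect in daf-2, 98 had effects of opposite signs and 15 had a call in neither background. Among the genes above 0, the largest pattern was a weaker fall: 514 genes (45.6%) fell in both backgrounds, by less in daf-2, with median effects of -1.70 in daf-2 and -3.61 in wt. Among the genes below 0, the largest pattern was an effect called in wt only, with 493 genes (61.2%) and median effects of 0.10 in daf-2 and 1.81 in wt. The interaction contains the effect in wt with a minus sign, so a tendency to oppose it is partly built in. The effect in wt had the other sign in 960 of the 1126 genes above 0 (85.3%) and in 772 of the 806 below 0 (95.8%).

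The number of calls depended on the batches. Without batch 4, which left 3 libraries in every group, 278 genes were above 0 and 350 below 0. Without batch 2 the counts were 597 and 432, without batch 3 they were 718 and 500, and without wt replicate 1 they were 1579 and 859. Every gene called in the full fit kept its sign in each of these fits. This says little, because called genes lie far from 0 for their SE and the fits share most libraries. Shares of lists are to be read against the 7.78% above 0 and 5.57% below 0 of all genes, and a list counts only the members that passed the filter on low values.

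Genes of hatching and of the embryonic cuticle gave the most one-sided list. These genes build the first cuticle and the apical matrix that shapes the embryo, and release the larva from the eggshell. Of 16 genes, 15 were tested, and 11 had an interaction below 0 (73.3%, beside 5.57% of all genes) and none above. Some members, such as hch-1, may have passed the filter on low values through the libraries with htz-1(bon101). The counts therefore only describe the tested members of a list written with earlier results of these data known. The list median was -3.17, against 0.04 over all genes tested. The median htz-1 effect of the list was 0.43 in daf-2 and 3.87 in wt. Its mean value lay between 4.86 and 5.70 in daf-2;htz-1, and it was 5.03 to 5.56 in daf-2, 8.46 to 8.86 in htz-1 and 4.50 to 5.26 in wt, so that the htz-1 libraries stood alone among the 4 groups. The count stayed at 10 or 11 whichever batch or library was left out.

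The gene hch-1 (WBGene00001828, chromosome X, 14696411 to 14699977 of WBcel235), which encodes the astacin metalloprotease that digests the eggshell at hatching, had the interaction farthest below 0. Its values in replicates 1 to 4 were 4.06, 5.59, 5.98 and 0.86 in the double mutant, 3.79, 3.33, 1.82 and 3.30 in daf-2, 10.68, 11.41, 10.84 and 10.40 in htz-1, and 1.97, 2.23, 2.28 and 2.15 in wt. The htz-1 libraries were more than 4 units above all others, and the double mutant overlapped daf-2. The interaction was -7.62 ± 0.92 (SE), adjusted p = 6.9e-06, made of an htz-1 effect of 1.06 in daf-2 and 8.68 in wt.

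The gene noah-1 (WBGene00016422, chromosome I, 5874416 to 5878958), which encodes a zona pellucida protein of the embryonic sheath, had the smallest p of all. It was 6.53, 6.21, 6.85 and 5.43 in the double mutant, 6.01, 6.07, 6.67 and 6.71 in daf-2, 10.52, 11.20, 10.98 and 10.76 in htz-1, and 5.51, 5.31, 6.23 and 5.76 in wt. The double mutant overlapped daf-2 and wt and lay below htz-1 in every library, and the interaction was -5.28 ± 0.39, adjusted p = 7.4e-09. Its relative noah-2 had an interaction of -4.28, the lipocalin-related matrix gene lpr-3 one of -6.29, the zona pellucida-domain gene cutl-2 one of -5.52, and the hedgehog-related gene wrt-10 one of -5.22. The wrt-10 libraries read 6.21, 5.74, 6.02 and 4.63 in the double mutant, 5.50, 4.91, 4.22 and 4.68 in daf-2, 10.05, 10.53, 10.59 and 10.12 in htz-1, and 3.40, 5.45, 3.08 and 5.19 in wt. Again the htz-1 libraries alone were high.

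The late-embryo markers overlap this list. Of the 8 markers 5 were called below 0, and 4 of these, hch-1, noah-1, dpy-14 and dex-1, are the same genes. Of the other 4 markers ceh-43 was called below 0, and elt-3, lin-26 and hlh-1 were not called. The mean value of all 8, which the shared genes carry in part, was 5.72 to 6.66 in daf-2;htz-1, 5.52 to 6.09 in daf-2, 8.73 to 9.18 in htz-1 and 4.96 to 5.58 in wt. Of 11 early-embryo markers 3 passed the filter on low values, and since a gene that is low elsewhere can pass it through the libraries where it is high, their calls are not counted here. Of 12 oocyte and germline markers none was called in limma, also at an unadjusted p under 0.05, and their mean value was 12.37 to 12.88 in daf-2;htz-1, 12.57 to 13.32 in daf-2, 12.64 to 12.97 in htz-1 and 12.69 to 13.57 in wt. Embryos are carried inside adult worms, and the part of their number or stage in the result was not tested.

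Early zygotic genes, the sdz, vet and pes genes that are first transcribed in the young embryo, had a list mean that was also highest in htz-1 among the 4 genotypes of the contrast. Of 46 genes 24 passed the filter, some of them perhaps through the htz-1 libraries alone, so their counts only describe them: 12 were below 0 and none above, and the median was -1.60, with median htz-1 effects of 0.77 in daf-2 and 2.36 in wt. The list mean was 5.23 to 5.41 in daf-2;htz-1, 4.18 to 4.93 in daf-2, 5.85 to 6.01 in htz-1 and 3.52 to 3.95 in wt, so the groups did not overlap and the double mutant lay between the single mutants. Examples are sdz-14, with an interaction of -2.38 ± 0.46, adjusted p = 0.00125, and sdz-21, with -2.65 ± 0.52, adjusted p = 0.00137. Without batch 1, 2, 3 or 4 the members called numbered 6, 7, 11 and 5.

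Of 52 tested homeobox genes 6 were below 0 (11.5%, beside 5.57% of all genes) and 1 was above, and without batch 4 the number below 0 was 1. Some members may have passed the filter on low values through the libraries with htz-1(bon101). The gene ceh-43, a Distal-less-like factor of anterior epidermis and neurons, averaged 6.30 ± 0.39 in daf-2;htz-1, 5.54 ± 0.55 in daf-2, 7.97 ± 0.16 in htz-1 and 3.89 ± 0.77 in wt (SD, n = 4 each), with an interaction of -3.32 ± 0.52 (SE), adjusted p = 1.4e-04. The gene ham-1 (WBGene00001820, chromosome IV, 12542183 to 12545737), needed for asymmetric division of neuroblasts, was 5.31, 6.13, 5.26 and 4.27 in the double mutant, 5.77, 5.47, 5.93 and 5.29 in daf-2, 9.50, 9.72, 8.89 and 8.52 in htz-1, and 4.44, 3.43, 5.22 and 2.76 in wt. Only the htz-1 libraries were above 8, and the interaction was -5.57 ± 0.59, adjusted p = 1.3e-06. The nuclear receptor gene sex-1, an X-signal element of sex determination, had an interaction of -1.40 ± 0.25, and cyd-1, the cyclin D gene, one of -2.51 ± 0.46.

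Of 8 tested linker histone genes 3 were below 0 (37.5%, beside 5.57% of all genes) and none above, whichever batch was left out. One of them, hil-7, averaged 3.93 in daf-2;htz-1, 1.83 in daf-2, 8.12 in htz-1 and 1.73 in wt. It may have passed the filter on low values through the libraries with htz-1(bon101), so the share only describes the tested members. The list median was -0.22. The gene his-24, which encodes a linker histone H1, averaged 7.85 ± 0.35 in daf-2;htz-1, 7.52 ± 0.61 in daf-2, 10.47 ± 0.15 in htz-1 and 6.82 ± 0.41 in wt (SD, n = 4 each). Its interaction was -3.33 ± 0.43 (SE), adjusted p = 1.7e-05, and that of hil-7 was -4.29 ± 0.69, adjusted p = 2.2e-04. On the core histone list 4 of 50 genes were below 0 (8%, near the 5.57% of all genes), and these include his-24, which the symbol pattern behind the list also takes in. The genes of H2A.Z deposition and removal had no call among 13 tested, and their interactions ranged from -0.53 to 0.20, with 1 below 0 at an unadjusted p under 0.05 in limma.

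F-box genes were the list with the most calls below 0. F-box proteins select targets for ubiquitin ligases, and the family is large and fast-evolving in nematodes. Of 310 genes 163 were tested, 42 (25.8%) were below 0 and 7 (4.29%) above, beside 5.57% and 7.78% of all genes, while the list median was -0.26. Some members, such as fbxb-40, may have passed the filter on low values through the libraries with htz-1(bon101). Its means were 2.30 in daf-2;htz-1, 2.82 in daf-2, 4.98 in htz-1 and 1.48 in wt. The counts therefore only describe the tested members. The median htz-1 effect was 0.65 in daf-2 and 1.09 in wt. The list mean was 5.55 to 5.73 in daf-2;htz-1, 4.77 to 5.24 in daf-2, 5.81 to 6.01 in htz-1 and 4.50 to 4.92 in wt. Without batch 2, 26 members were called below 0, and without batch 4, 25.

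The F-box gene fbxc-20 (WBGene00018352, chromosome II, 2419136 to 2420793) was 6.01, 5.73, 4.62 and 4.49 in the double mutant, 4.23, 4.38, 3.99 and 2.39 in daf-2, 9.73, 9.95, 10.04 and 9.89 in htz-1, and 3.29, 4.28, 4.34 and 3.92 in wt. The double mutant was above daf-2 in every library and far below htz-1, and the interaction was -4.48 ± 0.57, adjusted p = 1.3e-05. Another family member, fbxc-51, had an interaction of -5.08 ± 0.63. Of 81 tested BATH, BTB and Skp1-related genes, other adaptors of ubiquitin ligases, 15 were below 0 (18.5%) and 2 above (2.47%). The shares of all genes were 5.57% and 7.78%, and the list median was -0.23. Here too some members may have passed the filter through the libraries with htz-1(bon101). Examples are math-45 at -3.40 ± 0.49 and skr-8 at -3.13 ± 0.62. Without batch 1, 2, 3 or 4 the number below 0 was 10, 8, 7 and 6. Members of these families resemble each other, so reads may be split between near copies.

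**Figure D2:**
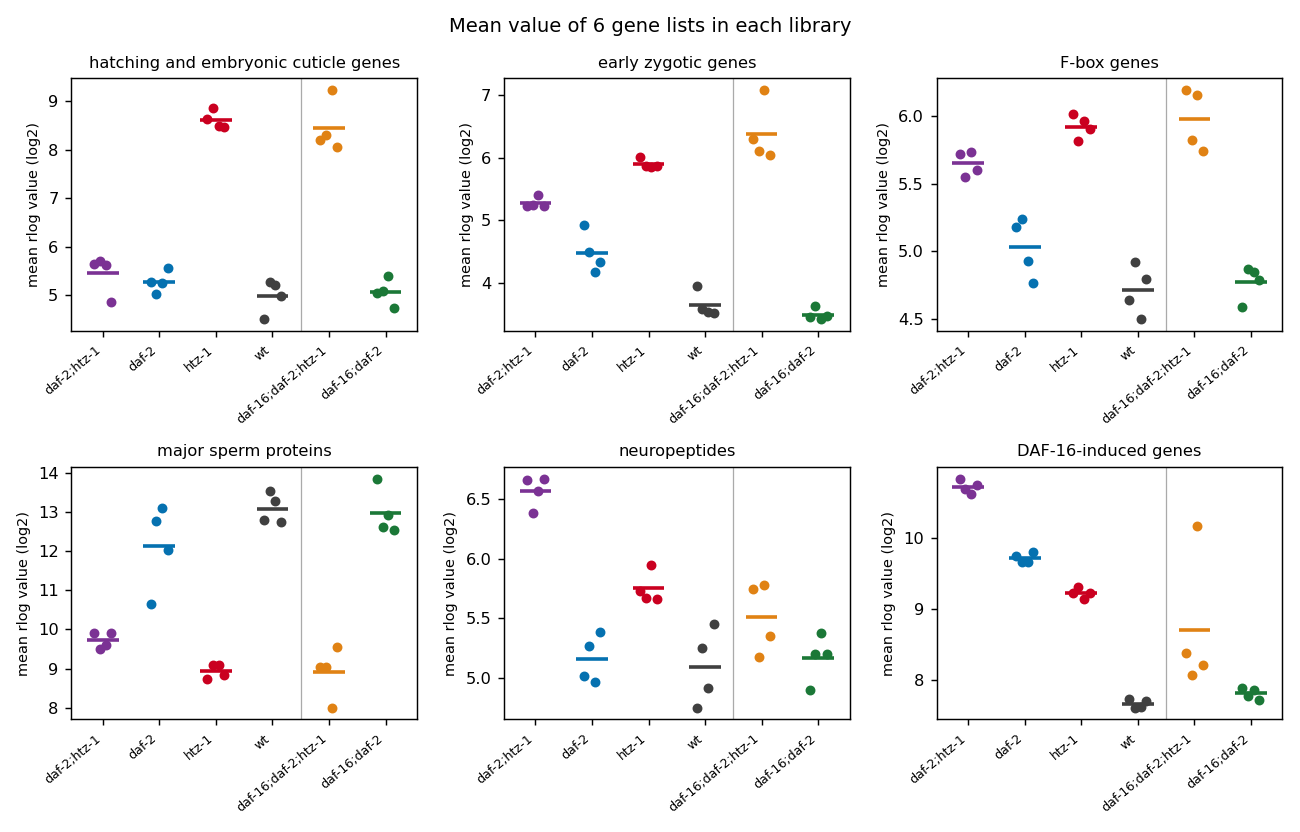
Mean rlog value (log2) of the tested members of 6 gene lists in each library, with a bar at the mean of each genotype; the vertical line parts the 4 genotypes of the contrast from the 2 daf-16 genotypes. Hatching and embryonic cuticle genes are low in daf-2;htz-1, high in htz-1, and high again in daf-16;daf-2;htz-1, and replicate 3 of daf-16;daf-2;htz-1 stands at 10.16 for the DAF-16-induced genes.

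The pud genes rose with each mutation alone, and the double mutant averaged below both single mutants. They encode small proteins known for their higher level in dauer larvae and daf-2 mutants, and 5 of them lie between 2322038 and 2329954 on chromosome V. The gene pud-3 (WBGene00017501) was 8.12, 7.48, 6.39 and 7.16 in the double mutant, 10.19, 9.57, 9.49 and 9.24 in daf-2, 9.46, 9.33, 7.70 and 9.73 in htz-1, and 4.27, 4.13, 4.19 and 4.32 in wt. Each single mutant was at least 3 units above wt in every library, and the double mutant lay below daf-2 in every library. The interaction was -7.16 ± 0.73, adjusted p = 6.2e-07, with an htz-1 effect of -2.33 in daf-2 and 4.83 in wt, and the sum of the single effects would have put the double mutant at 14.45.

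The other members behaved alike. The gene pud-1.2 (WBGene00021236) was 12.53, 12.23, 11.39 and 11.88 in the double mutant, 14.98, 13.84, 14.43 and 13.59 in daf-2, 14.47, 14.90, 13.58 and 14.24 in htz-1, and 11.03, 10.96, 10.53 and 10.27 in wt. The double mutant was below both single mutants in every library and above wt, with an interaction of -5.80 ± 0.52, adjusted p = 9.9e-08. The gene pud-4 had an interaction of -6.45 ± 0.70. The genes pud-2.1 and pud-2.2 carry identical values in the deposited table, so they count as 1 measurement, with an interaction of -5.71 ± 0.47, adjusted p = 2.9e-08.

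Many genes of the DAF-16-induced list rose with either mutation, and for a few of them the double mutant stayed below the sum. Of 29 tested members 18 rose with daf-2(e1370) alone, beside 6.43% of all genes, and 14 with htz-1(bon101) alone, beside 26.4%; genes of the first kind are on the list because DAF-16 is known to induce them. For the interaction 5 were below 0 (17.2%) and 2 above (6.9%), and the list median was 0.09, near that of all genes. Without batch 4 the number below 0 was 2, without batch 2 it was 3, and none was above 0 without batch 1, 2 or 4. The list mean was 10.62 to 10.83 in daf-2;htz-1, 9.66 to 9.80 in daf-2, 9.14 to 9.30 in htz-1 and 7.60 to 7.72 in wt, in 4 ranges that did not overlap. The gene mtl-1 (WBGene00003473), at 6691371 to 6691863 on chromosome V, encodes a metallothionein, a small protein that binds metals. It was 15.65, 15.21, 15.39 and 15.58 in the double mutant, 13.31, 12.75, 12.56 and 12.84 in daf-2, 13.66, 13.71, 12.96 and 14.17 in htz-1, and 5.07, 4.70, 4.69 and 4.77 in wt. The double mutant was the highest group, yet the sum of the single effects, 21.69, lies above the highest value of any gene in any library. The interaction was -6.23 ± 1.24, adjusted p = 0.00166, and without replicate 3 of daf-16;daf-2;htz-1, which widens the spread of this gene, the adjusted p was 4.0e-10.

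The dod-3 gene (WBGene00016052, chromosome V, 2730622 to 2731098), named for lying downstream of DAF-16, repeated this at 14.76, 14.19, 14.45 and 14.39 in the double mutant, 12.98, 11.75, 12.21 and 13.25 in daf-2, 13.85, 13.85, 13.67 and 13.83 in htz-1, and 8.94, 6.22, 6.23 and 6.89 in wt. All mutant libraries were above all wt libraries, and the interaction was -4.83 ± 0.65, adjusted p = 2.5e-05. The superoxide dismutase gene sod-5 had an interaction of -1.99 ± 0.44, which was not called without batch 4. Not every target did so: sod-3, which encodes the mitochondrial manganese superoxide dismutase, averaged 9.32 ± 0.04 in daf-2;htz-1, 8.88 ± 0.21 in daf-2, 5.06 ± 0.52 in htz-1 and 5.34 ± 0.46 in wt, with an interaction of 0.73 ± 0.92 (SE), adjusted p = 0.664. Without replicate 3 of daf-16;daf-2;htz-1 its adjusted p in limma was 0.294. For hsp-12.6, a small heat shock gene, the interaction was 0.46, adjusted p = 0.669, and for daf-16 itself 0.68, adjusted p = 0.127.

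Among genes that DAF-16 represses, dod-17 (WBGene00010745, chromosome IV, 12976303 to 12978343), a CUB-like gene, was 8.79, 8.47, 8.04 and 8.51 in the double mutant, 7.32, 7.91, 8.42 and 8.03 in daf-2, 8.79, 9.29, 8.62 and 7.88 in htz-1, and 8.95, 11.27, 10.63 and 10.45 in wt. The mutant groups overlapped each other, and apart from the second htz-1 library they lay below all wt libraries. Its interaction was 2.21 ± 0.48, adjusted p = 0.00351, and 1.93, adjusted p = 0.0716, without batch 4. The list as a whole had 2 of 15 members above 0 (13.3%) and 1 below (6.67%), beside 7.78% and 5.57% of all genes. The ligand gene ins-7, which DAF-16 also represses, had an interaction of -0.34, adjusted p = 0.824.

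Sperm genes were the lists with the most calls above 0, and their median htz-1 effect was nearer to 0 in daf-2 than in wt. Major sperm proteins form the cytoskeleton by which the nematode's crawling sperm moves, and they are made as sperm form in the germline. Of 31 genes 29 were tested, 16 (55.2%) were above 0 and none below, and the median was 1.73. All 29 fell in both backgrounds, and the median htz-1 effect in wt was -4.09. The list mean was 9.49 to 9.91 in daf-2;htz-1, 10.65 to 13.11 in daf-2, 8.72 to 9.10 in htz-1 and 12.76 to 13.53 in wt. Their sequences are close to each other, so reads can be shared between copies, and the 16 genes are not separate evidence.

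The gene msp-59 (WBGene00003452, chromosome IV, 5312728 to 5313111) was 12.96, 12.65, 12.73 and 12.94 in the double mutant, 13.70, 15.28, 15.39 and 15.22 in daf-2, 11.44, 11.76, 11.95 and 11.52 in htz-1, and 15.53, 16.17, 15.94 and 15.72 in wt. The 4 groups did not overlap, with the double mutant above htz-1 and below daf-2. Its htz-1 effect was -2.08 in daf-2 and -4.17 in wt, with an adjusted p = 0.00351 for the difference. The first daf-2 library, at 13.70, stood below the others of its group, and without it and the first wt library 14 members of the list were called. Without batch 1, 2, 3 or 4 the number was 8, 5, 20 and 3, and without daf-2 replicate 3 it was 26.

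Other sperm genes did likewise. Of 89 tested 19 (21.3%) were above 0 and 1 below, with a median of 1.10, and without batch 1, 2, 3 or 4 the number above 0 was 12, 12, 15 and 5. Examples are ssp-10, an MSP-domain gene, with an interaction of 2.07 ± 0.46, adjusted p = 0.00394, and ssp-37, with 1.54 ± 0.25, adjusted p = 2.4e-04, whose htz-1 effect was 0.94 in daf-2 and -0.60 in wt, both past the test. Of 15 sperm markers 6 were above 0, and their mean value was 7.96 to 8.36 in daf-2;htz-1, 8.90 to 10.81 in daf-2, 7.35 to 7.76 in htz-1 and 10.42 to 11.25 in wt. The number of sperm a worm holds was not measured here, and its part in the result was not tested.

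Cuticle collagens were called about as often as all genes. Of 130 tested 7 were above 0 (5.38%, beside 7.78%) and 9 below (6.92%, beside 5.57%), and the median was 0.03. The gene col-142 (WBGene00000715, chromosome V, 6831177 to 6832256) was 14.81, 15.22, 14.90 and 15.07 in the double mutant, 15.97, 16.48, 17.27 and 16.65 in daf-2, 11.66, 12.18, 12.22 and 11.30 in htz-1, and 16.64, 16.09, 17.50 and 15.92 in wt. The fall with htz-1(bon101) was smaller in daf-2, and the interaction was 3.10 ± 0.47, adjusted p = 1.2e-04. The blister collagen gene bli-6 behaved alike, with 2.49 ± 0.46. Below 0 stood collagens of body shape such as dpy-14, with -5.89 ± 0.81, and dpy-17, with -3.03 ± 0.39, which are also on the list of embryonic cuticle genes.

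**Figure D3:**
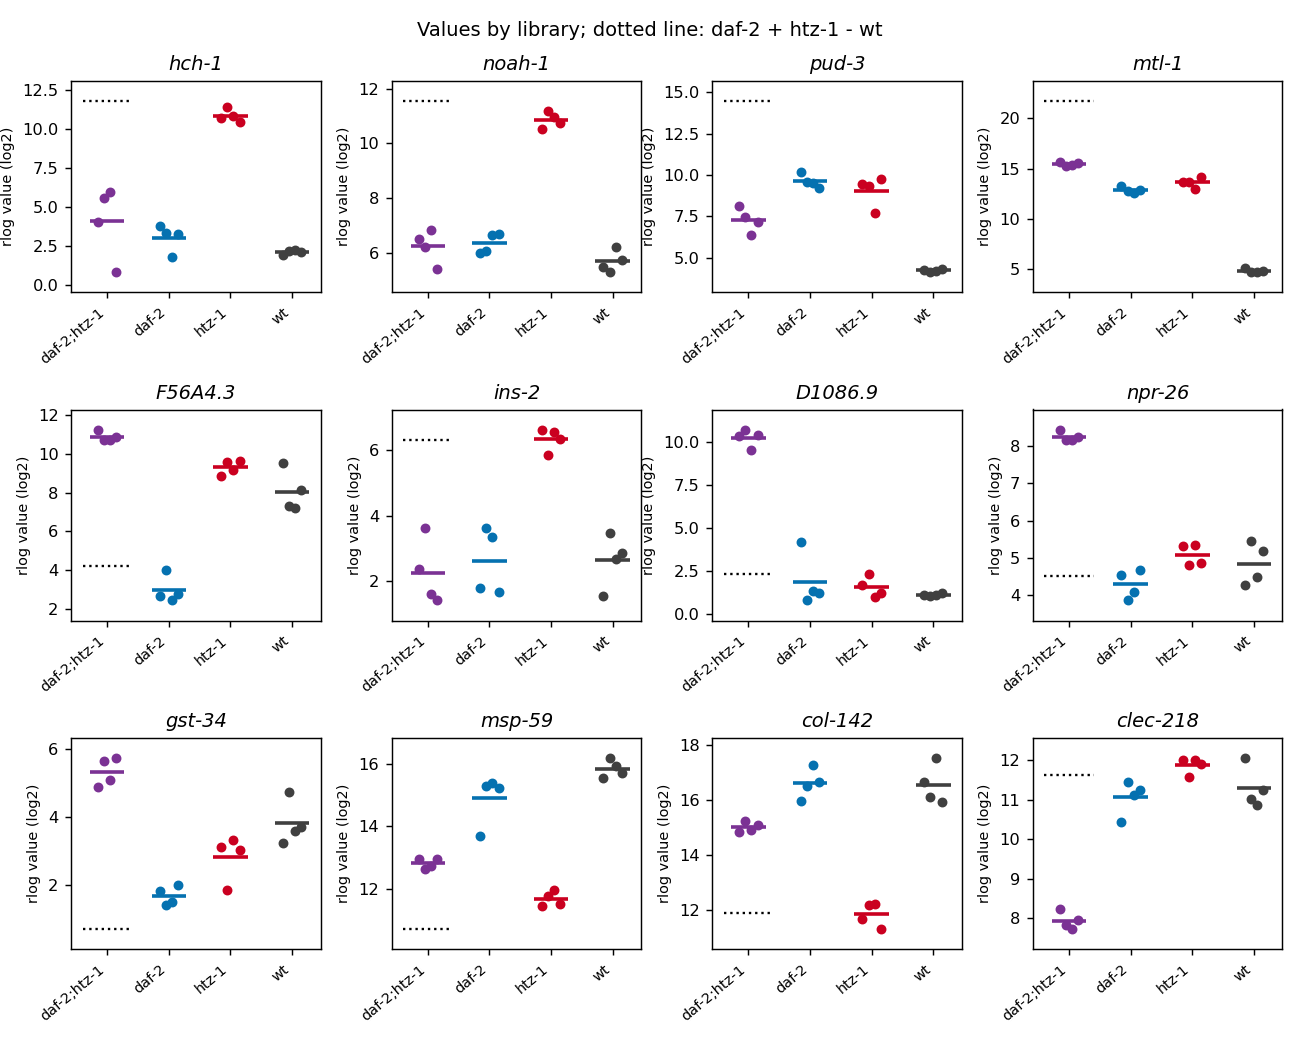
The rlog value (log2) of 12 genes in the 4 libraries of each genotype, with a bar at each mean; the y axis differs between panels and does not start at 0. The dotted line at the left of each panel is the double-mutant value at which the effects would add up (daf-2 plus htz-1 minus wt), for example 14.45 for pud-3, 4.22 for F56A4.3 and 11.64 for clec-218.

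A set of genes had its highest values in the double mutant among the 4 genotypes. All 4 daf-2;htz-1 libraries lay above the other 12 in 169 of the 1126 genes called above 0, and 873 of all genes tested (6.03%) had this order. The interaction contains the double mutant with a plus sign, so this order is partly built in among the called genes. The uncharacterized gene D1086.9 (WBGene00008396, chromosome V, 14104270 to 14106330) was 10.34, 10.72, 9.55 and 10.43 in the double mutant, 4.19, 0.79, 1.37 and 1.21 in daf-2, 1.70, 2.36, 1.01 and 1.22 in htz-1, and 1.09, 1.05, 1.09 and 1.24 in wt. In the other 3 genotypes it was at most 2.36, apart from 4.19 in daf-2 replicate 1. Outside the contrast it was 7.01 in replicate 3 of daf-16;daf-2;htz-1 and at most 1.86 in the other 7 libraries. The interaction of 7.91 ± 1.21, adjusted p = 1.1e-04, was the largest above 0 among the genes tested, and its adjusted p was 6.7e-08 without that replicate 3.

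The gene npr-26 (WBGene00011372, chromosome IV, 17408230 to 17417823), named as a neuropeptide receptor, was 8.44, 8.16, 8.17 and 8.25 in the double mutant, 4.53, 3.85, 4.09 and 4.66 in daf-2, 5.31, 4.81, 5.35 and 4.85 in htz-1, and 4.27, 5.44, 4.48 and 5.17 in wt. The single mutants overlapped wt, and the interaction was 3.74 ± 0.44, adjusted p = 4.6e-06. The saposin-like gene spp-9 (WBGene00004994, chromosome X, 11487784 to 11488203) was 10.99, 10.47, 11.05 and 11.15 in the double mutant, 3.77, 4.86, 6.43 and 6.02 in daf-2, 2.51, 2.36, 2.53 and 1.64 in htz-1, and 1.50, 1.46, 1.50 and 1.66 in wt. It rose with daf-2(e1370) alone and lay far higher in the double mutant, with an interaction of 4.91 ± 1.18, adjusted p = 0.00685, which became 0.0535 without batch 1 and 0.0666 without batch 4, and 3.5e-06 without replicate 3 of daf-16;daf-2;htz-1.

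The opposite order, with the lowest values in the double mutant, was rarer. All 4 daf-2;htz-1 libraries lay below the other 12 in 38 of the 806 genes called below 0, and 1.51% of all genes tested had this order. Here too the order is partly built in among the called genes. The gene with the widest gap was clec-218 (WBGene00020938, chromosome V, 8307942 to 8310766), which encodes a protein with a C-type lectin domain. It was 8.22, 7.82, 7.72 and 7.95 in the double mutant, 10.43, 11.46, 11.13 and 11.24 in daf-2, 12.01, 11.59, 12.02 and 11.90 in htz-1, and 12.05, 11.03, 10.88 and 11.26 in wt. Neither single mutation moved it past the test, and the interaction was -3.72 ± 0.35, adjusted p = 2.0e-07. The genes F28H7.3, F53F1.4 and K12H4.7 followed, with interactions of -2.08, -2.15 and -1.36.

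Another set was low in daf-2 and high in the double mutant. The gene F56A4.3 (WBGene00018911, chromosome V, 2453414 to 2456147) was 11.23, 10.69, 10.71 and 10.88 in the double mutant, 2.68, 3.99, 2.44 and 2.76 in daf-2, 8.87, 9.56, 9.15 and 9.65 in htz-1, and 9.55, 7.32, 7.20 and 8.14 in wt. The daf-2 libraries alone were below 4, and the interaction was 6.66 ± 0.63, adjusted p = 2.2e-07, with an htz-1 effect of 7.91 in daf-2 and 1.25 in wt. The gene irld-53 (WBGene00021222, chromosome V, 2348215 to 2350325), of a family related to the ligand-binding domain of the insulin receptor, was 8.86, 8.46, 8.93 and 8.87 in the double mutant, 2.81, 3.07, 2.34 and 2.64 in daf-2, 7.94, 7.89, 7.56 and 8.07 in htz-1, and 8.85, 7.12, 6.80 and 7.35 in wt. Again daf-2 was the only low group, and the interaction was 5.74 ± 0.52, adjusted p = 9.9e-08.

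The same order of groups was found at F33H12.7, with means of 13.03 ± 0.09 in daf-2;htz-1, 4.61 ± 1.97 in daf-2, 11.02 ± 0.20 in htz-1 and 8.66 ± 1.56 in wt, and at F56A4.10, Y37H2A.14 and B0205.13, with interactions of 5.10, 4.73 and 4.35. Some of these genes may share reads with near copies. There are 95 tested genes with the same values as another gene, 16 of them called for the interaction, and with such genes counted once 1122 were above 0 and 802 below.

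Neuropeptide genes had 9 of 59 tested members above 0 (15.3%, beside 7.78% of all genes) and none below, with a median of 0.71 and a median htz-1 effect of 1.13 in daf-2 and 0.40 in wt. The list mean was 6.38 to 6.67 in daf-2;htz-1, 4.97 to 5.39 in daf-2, 5.66 to 5.95 in htz-1 and 4.75 to 5.45 in wt, with the double mutant above every other library. The gene pdf-1, which encodes a neuropeptide of locomotion and arousal, averaged 9.04 ± 0.21 in daf-2;htz-1, 7.40 ± 0.25 in daf-2, 8.04 ± 0.33 in htz-1 and 7.89 ± 0.31 in wt, with an interaction of 1.49 ± 0.27 (SE), adjusted p = 5.9e-04. The neuropeptide-like gene nlp-14 had an interaction of 2.48 ± 0.43. Without batch 1, 2, 3 or 4 the number of neuropeptide genes called was 8, 6, 5 and 3.

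The proprotein convertase gene egl-3 (WBGene00001172, chromosome V, 10169177 to 10173753), whose enzyme cuts neuropeptide precursors, was 9.90, 9.88, 9.76 and 9.74 in the double mutant, 7.73, 8.37, 8.92 and 8.37 in daf-2, 8.80, 8.86, 8.67 and 7.87 in htz-1, and 8.43, 8.53, 9.63 and 8.53 in wt. The double mutant was above all 12 other libraries, and the interaction was 1.70 ± 0.35, adjusted p = 0.0021. Of the 10 neuronal markers tested, egl-3 was the only one called, and 2 of 23 synaptic release genes (8.7%) were above 0. The mean of the neuronal markers, tested or not, was 6.32 to 6.60 in daf-2;htz-1, 5.43 to 5.92 in daf-2, 6.29 to 6.62 in htz-1 and 5.72 to 6.14 in wt. This mean was higher in both htz-1 genotypes, and its part in the neuropeptide values was not tested.

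Insulin-like peptides, the ligands of the DAF-2 receptor or its antagonists, went both ways. Of 38 genes 20 were tested, with 4 above 0 (20%) and 2 below (10%), beside 7.78% and 5.57% of all genes. Without batch 4 there was 1 of each. Some members, such as ins-2, may have passed the filter on low values through the group where they were high. The counts therefore only describe the tested members. The gene ins-6 (WBGene00002089, chromosome II, 6000436 to 6001009), which encodes an agonist of the receptor, was 5.33, 5.05, 5.34 and 5.55 in the double mutant, 2.03, 3.72, 3.32 and 2.87 in daf-2, 2.42, 2.97, 3.37 and 2.22 in htz-1, and 2.57, 3.92, 3.56 and 4.60 in wt. It was highest in all double-mutant libraries, with an interaction of 3.25 ± 0.67, adjusted p = 0.00229, and 0.0644 without batch 4. Its chromosomal neighbour ins-2 (WBGene00002085, 5988524 to 5989426) was 2.36, 3.62, 1.61 and 1.41 in the double mutant, 1.79, 3.62, 3.35 and 1.67 in daf-2, 6.62, 5.86, 6.56 and 6.34 in htz-1, and 1.56, 3.47, 2.67 and 2.85 in wt. Here only htz-1 was high, and the interaction was -4.07 ± 0.66, adjusted p = 2.1e-04. The components of the insulin pathway downstream of these ligands had no call among 18 tested, with interactions from -0.66 to 1.16, and 3 above 0 and 2 below at an unadjusted p under 0.05 in limma.

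Among enzymes that modify small molecules, cytochrome P450 genes, which encode oxidizing enzymes, had 12 of 61 tested above 0 (19.7%, beside 7.78% of all genes) and 3 below (4.92%, beside 5.57%), and the list mean was 7.48 to 7.53 in daf-2;htz-1, 6.37 to 6.98 in daf-2, 6.90 to 7.11 in htz-1 and 6.15 to 6.53 in wt. The gene cyp-13A5 had an interaction of 2.50 ± 0.44, adjusted p = 5.6e-04, and cyp-29A4 one of -2.52 ± 0.50, adjusted p = 0.00174. UDP-glucuronosyltransferase genes, whose products attach a sugar acid, had 9 of 60 above 0 (15%) and 5 below (8.33%), both above the shares of all genes, with ugt-21 at 2.42 ± 0.39 and ugt-64 at -1.85 ± 0.28. Without batch 4 each of these families had 3 genes above 0, and without batch 3 the P450 genes had 6.

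Glutathione S-transferases had 5 of 40 above 0 (12.5%) and 1 below (2.5%). The gene gst-34 (WBGene00001782, chromosome II, 15179906 to 15183239) was 4.87, 5.64, 5.07 and 5.71 in the double mutant, 1.83, 1.41, 1.51 and 2.01 in daf-2, 3.10, 1.85, 3.33 and 3.03 in htz-1, and 3.24, 4.72, 3.59 and 3.69 in wt. Both single mutants were lower than wt on average and the double mutant was higher, with an interaction of 4.61 ± 0.59, adjusted p = 1.4e-05. The fatty acid desaturase list had 3 of 7 above 0 (42.9%, beside 7.78% of all genes), among them fat-2 at 0.91 ± 0.24. No desaturase was called without batch 1 or without batch 4, where the adjusted p of fat-2 was 0.0795 and 0.121. Muscle contraction genes had 6 of 33 above 0 (18.2%) and 1 below (3.03%), beside 7.78% and 5.57% of all genes. Without batch 4 there was 1 above.

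Genes of immunity had calls in both directions. C-type lectin-domain genes had 13 members above 0 (11.6% of those tested) and 14 below (12.5%), and without batch 4 the numbers were 5 and 9. Saposin-like and antibacterial peptide genes had 4 of 64 above 0 (6.25%, near the 7.78% of all genes) and 10 below (15.6%), and 4 below without batch 2 and 3 without batch 4. The gene clec-266 (WBGene00016088, chromosome X, 6617393 to 6622915) was 9.36, 9.26, 8.49 and 7.53 in the double mutant, 9.10, 5.78, 6.30 and 6.29 in daf-2, 13.03, 13.55, 13.22 and 13.11 in htz-1, and 5.46, 3.63, 4.23 and 3.61 in wt. The htz-1 libraries stood apart as they did for hch-1, and the interaction was -7.20 ± 0.72, adjusted p = 4.5e-07. The lysozyme gene ilys-5 (WBGene00017691, chromosome X, 6533490 to 6536840), of the invertebrate type, was 9.02, 9.83, 9.79 and 9.16 in the double mutant, 11.44, 11.06, 11.47 and 11.07 in daf-2, 15.77, 16.50, 16.32 and 15.82 in htz-1, and 15.58, 15.50, 15.56 and 15.76 in wt. It was low with daf-2(e1370) and lower still in the double mutant, with an interaction of -2.31 ± 0.36, adjusted p = 1.4e-04. Of the genes named here, clec-266, col-142, sod-3, K12H4.7, ugt-64, cpg-3, epg-2 and dhs-16 overlap a coding gene on the other strand, and since SMART-Seq2 libraries do not mark strand the reads of both cannot be told apart.

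**Figure D4:**
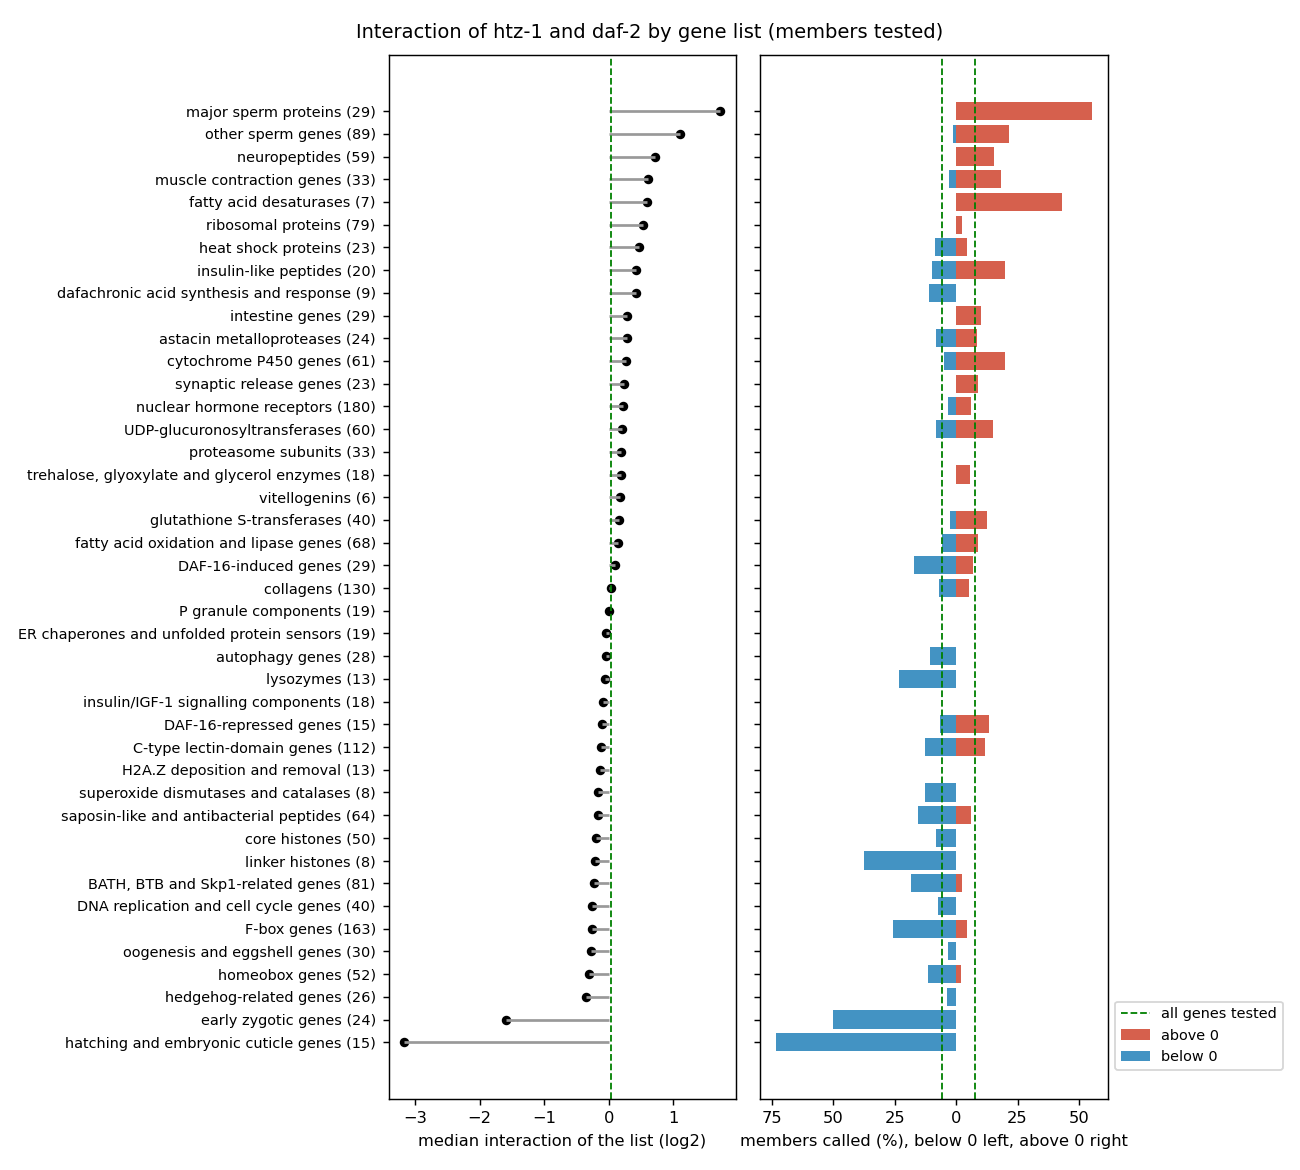
Median interaction (log2, left) and percent of tested members called (right; below 0 drawn to the left, above 0 to the right) for 42 gene lists, with the number of members tested in parentheses. Green dashed lines mark all genes tested, with a median of 0.04, 7.78% above 0 and 5.57% below 0; hatching and embryonic cuticle genes stand lowest with a median of -3.17 and major sperm proteins highest with 1.73.

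Several other lists, some of them small, had few calls or none. Of 79 ribosomal protein genes 2 were above 0 and none below, although their median was 0.53, and of 33 proteasome subunits none was called, with a median of 0.19. The 19 P granule components, the 6 vitellogenins and the 19 genes of ER chaperones and unfolded protein sensors had no call either. At an unadjusted p under 0.05 in limma, 1 proteasome gene was above 0, 1 ER gene was above and 1 below, and no P granule or vitellogenin gene passed. Oogenesis and eggshell genes had 1 of 30 below 0, cpg-3, with -1.59 ± 0.36. Autophagy genes had 3 of 28 below 0 (10.7%), with epg-2 at -2.58 ± 0.39. The dafachronic acid list had 1 of 9 (11.1%), dhs-16, at -3.48 ± 0.46. Both shares are above the 5.57% of all genes and rest on few genes. The means of dhs-16 were 1.98 in daf-2;htz-1, 2.56 in daf-2, 4.86 in htz-1 and 1.97 in wt. It was thus below 3 in all groups of the contrast but htz-1. It may have passed the filter on low values only through the htz-1 libraries and those outside the contrast. Among nuclear hormone receptor genes 11 of 180 were above 0 and 6 below, with shares of 6.11% and 3.33% that are below those of all genes.

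Read from the side of daf-2, the same interaction says that the effect of daf-2(e1370) differed with and without htz-1(bon101). The daf-2 effect was called for 2836 genes in the htz-1 background (19.6%) and for 1793 in wt (12.4%). Across genes the effects in both backgrounds had a correlation of r = 0.260 and rho = 0.077, and they had the same sign for 52.2% of the genes. The median size of the daf-2 effect was 0.329 in htz-1 and 0.316 in wt, beside a median SE of 0.276. For many genes the sign is therefore uncertain, which lowers these values. Of the 1932 genes called for the interaction, 1070 (55.4%) had a daf-2 effect called in htz-1 only, 421 (21.8%) in wt only, and 146 (7.56%) had opposite effects in the 2 backgrounds. For pud-1.2 the daf-2 effect was -2.29 in htz-1 and 3.51 in wt, and for npr-26 it was 3.18 in htz-1 and -0.56 in wt, where it did not pass the test.

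The 8 libraries outside the contrast carry the htz-1 effect in a further background, daf-16;daf-2, where it was called for 48.3% of the genes tested. The genes called for the interaction had, in this background, an htz-1 effect nearer to that in wt than to that in daf-2 for 1030 of the 1126 above 0 (91.5%) and 667 of the 806 below 0 (82.8%), beside 67.2% of all genes tested. The median htz-1 effect of the genes above 0 was -1.585 in daf-16;daf-2, -0.404 in daf-2 and -1.812 in wt. For the genes below 0 it was 1.662 in daf-16;daf-2, 0.129 in daf-2 and 1.865 in wt. The wt and daf-2 values helped choose these genes and the daf-16;daf-2 values entered only the spread, so the medians are given with no test. Without replicate 3 of daf-16;daf-2;htz-1 the medians for the same genes were -1.705 and 1.587, with 91.6% and 80.9% nearer to wt.

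**Figure D5:**
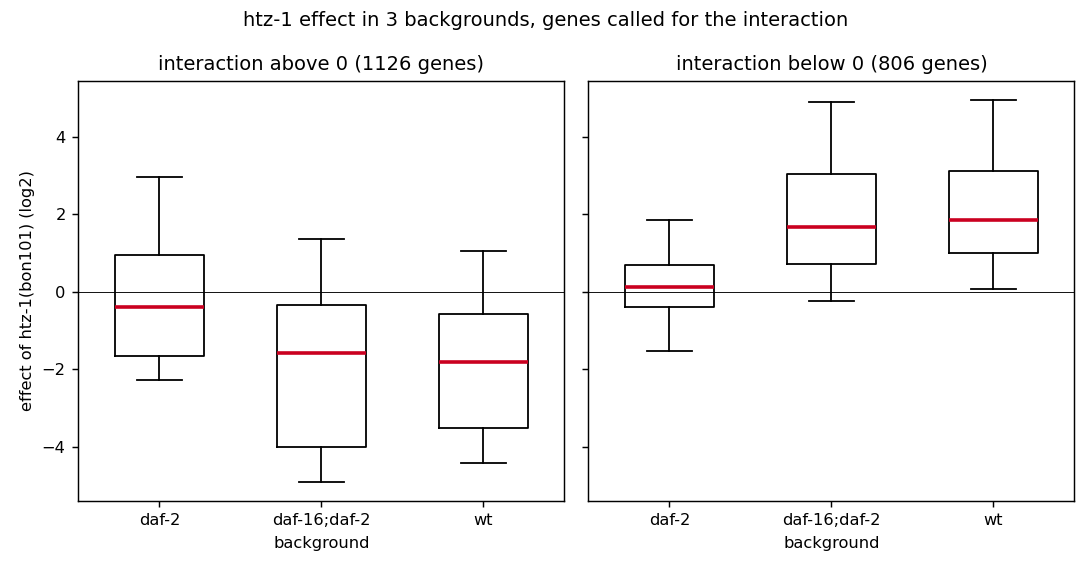
Effect of htz-1(bon101) (log2) in daf-2, daf-16;daf-2 and wt for the 1126 genes with an interaction above 0 (left) and the 806 below 0 (right). Boxes span the quartiles with the median in red, and whiskers reach the percentiles 5 and 95; the daf-16;daf-2 medians of -1.585 and 1.662 lie nearer to those of wt than to those of daf-2.

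The embryonic genes and some genes highest in the double mutant can be read in this background too. The htz-1 effect of hch-1 was 8.41 in daf-16;daf-2, 1.06 in daf-2 and 8.68 in wt, and that of noah-1 was 4.02 in daf-16;daf-2, -0.11 in daf-2 and 5.16 in wt. For npr-26 it was 0.26 in daf-16;daf-2, 3.97 in daf-2 and 0.24 in wt. For mtl-1 the SD over the 4 libraries of daf-16;daf-2;htz-1 was 3.44, with replicate 3 among them, and its effect is not set beside the others. For F56A4.3 the effect of 4.29 in daf-16;daf-2 lay between 7.91 in daf-2 and 1.25 in wt.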

How the data were processed

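Total RNA of whole worms was turned into SMART-Seq2 libraries, per the labels' protocols. The values used are regularized log2 (rlog) values as the authors deposited them, in a single table of 21689 genes by 24 libraries. The submitters' processing notes name bcl2fastq 2.20, kallisto and the genome build WBcel235, and no source used here says how the rlog values were made. They hold no counts, so depth is unknown, and they shrink the differences of genes with few reads. Genes with a mean of at least 3 were fitted with limma 3.58.1 (R 4.3.3), 1 mean per genotype over 24 libraries, 18 residual degrees of freedom, an intensity trend and no batch term. Each contrast had a 2-sided test, p-values were adjusted over the 14482 genes by the Benjamini-Hochberg method, and the threshold was 0.05. The script was tested on simulated data. Adjusted p-values of genes are limma's from this fit unless a setting is named.

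The replicate number equals the labelled batch, so the numbers pair libraries. Deviations from the group means correlated across genes at 0.403 to 0.513 between daf-2 and wt libraries of the same batch, and at -0.265 to 0.292 for the other pairs of groups. Lists of genes (42) and the rule for named genes were written with earlier results of these data known. The rule took the mutated genes htz-1, daf-2 and daf-16, the DAF-16 targets mtl-1, dod-17, ins-7, hsp-12.6 and sod-3, the 12 largest called interactions per direction, up to 2 called members per list and direction with the smallest p, and the 4 genes with the widest gap per side; not all of these are printed. Symbols come from Ensembl and RefSeq, and 114 of 268 identifiers that share a symbol were given the RefSeq symbol of their position. Tested alternatives were a replicate block, other filters, scalings and variance models, fewer libraries, and each batch and library left out. The removal of replicate 3 of daf-16;daf-2;htz-1 and the single count of identical genes were added after seeing the data.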

Additional observations from a re-analysis of the deposited data

Results flagged for a closer look

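The htz-1 effect differed between the daf-2 and wt backgrounds by the test of the difference itself in 1126 genes where it was higher in daf-2 and 806 where it was lower.

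In 132 sets of 4 libraries, from 24 genes and the means of gene lists, 11 had a library far from the other 3 of its genotype (by Dixon's test at the 95% level), where chance gives about 1 in 20. In daf-2 replicate 1, clec-266 was 9.10 (median of the others 6.29), D1086.9 was 4.19 (1.21) and msp-59 was 13.70 (15.28). In daf-2;htz-1, irld-53 was 8.46 in replicate 2 (8.87), the mean of the hatching and embryonic cuticle genes was 4.86 in replicate 4 (5.65) and that of the early zygotic genes was 5.41 in replicate 3 (5.23). In htz-1, dod-3 was 13.67 in replicate 3 (13.85) and the early zygotic mean was 6.01 in replicate 1 (5.86). In wt, egl-3 was 9.63 in replicate 3 (8.53) and the early zygotic mean was 3.95 in replicate 1 (3.54). The mean of the DAF-16-induced genes was 10.16 in replicate 3 of daf-16;daf-2;htz-1 (8.20). What sets these libraries apart was not tested.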

How the results depend on the processing

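Every gene called for the interaction kept its sign in each fit that tested it, which the choice of called genes makes likely, and the counts moved. With array weights 1905 genes were above 0 and 1144 below. Leaving out a batch or a library gave 278 to 1579 above and 350 to 902 below, lowest without batch 4. For the daf-2 effect in htz-1, array weights gave 3241 higher and 2255 lower, and leaving out gave 732 to 1871 and 720 to 1237. For the daf-2 effect in wt, leaving out gave 512 to 1080 higher and 438 to 1135 lower. The replicate block, which pairs libraries by batch, gave 1243 above and 846 below for the interaction, moved no count of calls by over 1.5 times, and ended the calls of fat-6 and unc-45 among named genes, which were also lost without each batch. Centring each library moved the median interaction of all genes to -0.06069, against 0.0408 as deposited.

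Genes are chosen anew in each setting for the median htz-1 effect in daf-16;daf-2. For those above 0 it was -1.771 with the block, -1.103 with no filter, -2.118 with a minimum mean of 5, -2.450 centred, -1.446 with quantile normalization, -1.980 without the first wt and daf-2 libraries, and -2.761 to -1.077 over leave-outs. For those below 0 it was 1.188 with a minimum mean of 5, 1.420 with quantile normalization, 1.078 with array weights, and 1.372 to 2.587 over leave-outs. The cause was not tested. Uncalled interactions changed sign for hsp-12.6 without replicate 1 (-0.04; -0.04 to 0.73 over leave-outs) and for ins-7 with array weights (0.51), without daf-2 replicate 2 (0.11) and without wt replicate 3 (0.17; -0.89 to 0.17 over leave-outs). Promoter sequences were not analysed here. Without read counts, low values carry no stated precision.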

Other observations

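By chromosome, the share of tested genes with an interaction above 0 was highest on IV (9.77%) and V (9.22%) and lowest on III (5.48%), and the share below 0 was highest on II (7.07%) and X (6.7%) and lowest on III (4.16%). Epidermal markers had 2 of 10 below 0, with a mean value of 5.91 to 6.14 in daf-2;htz-1, 6.46 to 8.25 in daf-2, 6.39 to 7.12 in htz-1 and 6.85 to 7.92 in wt. Body wall muscle markers had none of 8 called (2 above 0 at an unadjusted p under 0.05 in limma), with 10.46 to 10.77 in daf-2;htz-1, 10.18 to 10.49 in daf-2, 10.43 to 11.14 in htz-1 and 10.65 to 11.86 in wt. These values were not tested further.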
